A study of Mus musculus with 18 samples.

Results

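The 10 genes described here encode the 2 cytoplasmic actins (Actb and Actg1), the 4 tropomyosins (Tpm1 to Tpm4), the beta-thymosins Tmsb4x and Tmsb10, cofilin (Cfl1) and profilin (Pfn1), and each was found by its symbol in the RNA table as 1 of 26599 entries. The cells were MEL cells, a mouse erythroleukemia line that starts to make hemoglobin in dimethyl sulfoxide (DMSO). RNA was taken after 5 days in 2% DMSO (day 5) and from the same line before treatment (day 0), with 2 biological replicates per day, per the labels. Values are FPKM, that is, fragments per kilobase of transcript and per 1000000 fragments sequenced, as the authors deposited them. No untreated culture kept for 5 days was part of the RNA comparison, so treatment and time in culture cannot be told apart, and MEL is a leukemia line and not a culture of normal erythroblasts.

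Actin monomers assemble into filaments that drive cell shape, movement and division. Profilin and the beta-thymosins bind monomers, profilin passing them on to growing filament ends and the thymosins holding them in reserve, while cofilin severs filaments and speeds their turnover. Tropomyosins lie along filaments and stabilise them. In the mature red cell most of this machinery is reduced to short actin filaments, each bound by tropomyosin and capped by tropomodulin and adducin, which tie the spectrin network together under the membrane.

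After 5 days in DMSO 1 of these genes rose and 1 fell by limma, a linear model fitted across all genes, at an adjusted p under 0.05, which 18.5% of all tested genes passed. Tmsb10 RNA was 3.04-fold as high on day 5 as on day 0, and Cfl1 RNA fell to 0.568 of its day 0 level. After quantile normalization the Cfl1 call was lost (limma adjusted p = 0.0766), while that of Tmsb10 held (0.0131). Neither passed without a filter on low values (0.0925 for Cfl1 and 0.0598 for Tmsb10). The levels are bulk RNA values, in which a smaller number of cells with the transcript and less transcript per cell cannot be told apart. The summed RNA of the 2 cytoplasmic actins was nearly the same on both days, at 2837 ± 416 FPKM on day 5 and 2848 ± 153 FPKM on day 0 (SD, n = 2 each). The share of Actb in that sum was 68.3% and 60.0% on day 5, above the 50.4% and 57.9% of day 0. Tpm1 and Tpm3 did not pass, with log2 fold changes of 0.02 and 0.04. The day 5 libraries of Tpm3 lay on either side of those of day 0, so it has no clear direction. The related copy Tpm3-rs7 fell to 0.480 of its day 0 level, but reads of Tpm3 and of this copy are hard to part.

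The promoters of Tmsb10 and Cfl1 are printed because these are the members that passed the test. That of Actg1 is printed because it alone, of the 9 member promoters searched, held a CArG box. This is the site known for serum response factor (SRF), a regulator of actin genes. The promoter of Actb was not searched. Each is the 250 bases before the most upstream start that RefSeq gives in build GRCm38.p6, on the strand of the gene and from 5′ to 3′. For Tmsb10 RefSeq gives 3 starts, and the windows of the other two were not used here. The positions are not those of mm9, the build named for the study's other assays. Capitals mark every match on either strand to the 6 motifs searched. The first is the CArG box, searched as CC, then 6 bases of A or T, then GG. Near matches to it were not searched. The second is CCAAT, bound by NF-Y. The third is GGGCGG, the core of sites for SP1-type factors. The fourth is TATAAA, the TATA box. The fifth is AGATAA, a form of the GATA factor site, and the sixth is GAGGAAGT, a form of the PU.1 site.

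Tmsb10, chr6:72958749-72958998, minus strand: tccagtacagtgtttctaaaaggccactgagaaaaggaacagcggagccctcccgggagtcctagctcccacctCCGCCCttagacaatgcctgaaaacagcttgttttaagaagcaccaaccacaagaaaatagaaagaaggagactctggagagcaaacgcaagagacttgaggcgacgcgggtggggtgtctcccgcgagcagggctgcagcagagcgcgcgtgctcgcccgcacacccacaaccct
Cfl1, chr19:5490205-5490454, plus strand: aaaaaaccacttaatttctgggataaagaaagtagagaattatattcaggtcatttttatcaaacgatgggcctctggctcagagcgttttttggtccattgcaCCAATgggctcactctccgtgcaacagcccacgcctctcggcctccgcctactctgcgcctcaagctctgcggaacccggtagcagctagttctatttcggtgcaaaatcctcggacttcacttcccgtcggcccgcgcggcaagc
Actg1, chr11:120348496-120348745, minus strand: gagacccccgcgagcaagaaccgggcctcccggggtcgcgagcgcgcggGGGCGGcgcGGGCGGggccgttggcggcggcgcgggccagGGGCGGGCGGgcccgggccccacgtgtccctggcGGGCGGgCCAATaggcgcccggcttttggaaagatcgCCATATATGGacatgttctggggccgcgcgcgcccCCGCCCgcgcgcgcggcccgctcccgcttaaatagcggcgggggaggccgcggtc

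A promoter was at hand for 9 of the 10 members and was not used here for Actb. The CArG box of Actg1 lay 90 to 81 bases before the start, and 1 of the 9 promoters held one, against 1.47% of 32851 promoter windows of the same length. Those windows include every start of a gene, while each member is counted by its most upstream start only. A GGGCGG was found in 7 of the 9 and in 32.7% of all windows. The share of G and C in these 7 ran from 52% (Tmsb4x) to 79.2% (Actg1), beside 53.2% over all windows. The part of this base content in the count was not tested. These 7 included Tmsb10, with 1 match 176 to 171 bases before the start on the other strand, and Actg1, with 6 matches of which 2 overlap by 2 bases. A CCAAT was found in 3 of the 9 and in 33.8% of all windows, and the 3 were those of Cfl1, 146 to 142 bases before the start, of Actg1 and of Tpm1. An AGATAA was found in the promoter of Tpm3 alone (9.99% of all windows), before the most upstream of its 2 starts. The window of the other Tpm3 start was not searched. None of the 9 held a TATAAA, which 12.4% of all windows did. None held a GAGGAAGT, which 2.44% of all windows did. Matches are descriptions of the letters and not evidence of binding.

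The 4 RNA libraries held between 758150 and 787494 FPKM in all, and their read depth is unknown, since FPKM hold no counts. The test was limma on log2(FPKM + 1) over the 10736 entries that reached 1 FPKM in 2 or more libraries, with a threshold of 0.05 on the Benjamini-Hochberg adjusted p. It called 1989 of them (18.5%), of which those higher on day 5 made up 10.7% and those lower 7.81% of all tested. Over the 10736 the median log2 fold change was 0.15, so a gene with a log2 fold change of 0 stood a little below the middle of all genes. Quantile normalization moved that median to 0.01 and gave 814 calls upward and 895 downward, where the deposited scaling gave 1150 and 839. The erythroid markers were present, with a summed level of 32995 and 31166 FPKM on day 5 and 2146 and 1406 FPKM on day 0. Much of the day 5 sum was globin RNA, with Hba-a1 alone at 17923 and 14670 FPKM. Of the 10 erythroid markers 8 passed, all higher on day 5. Gata1 and Klf1 did not pass (limma adjusted p = 0.076 and 0.0538), and Slc4a1 had only 5.03 and 4.16 FPKM on day 5. All 7 macrophage and granulocyte markers, among them Csf1r, Lyz2 and Mpo, were listed at 0 or below 0.001 FPKM in every library. The 10 fibroblast and smooth muscle markers summed to 5.92 and 5.74 FPKM on day 5 and 7.29 and 5.10 FPKM on day 0, with Dcn and Lum listed at 0 throughout. The 6 megakaryocyte markers summed to 138 and 112 FPKM on day 5 and 57.8 and 18.2 FPKM on day 0, with Ppbp listed at 0. The part of the erythroid and megakaryocyte markers' shift in the results below was not tested.

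Of the 10 members, 8 passed the filter on low values and were tested. Tpm2 and Tmsb4x did not and are described by their values below. In limma 2 of the 8 (25%) passed, set against the 18.5% of all genes, so the share of members that passed was not far from that of the table as a whole. The count was 1 of 8 after quantile normalization (15.9% of all genes) and without the trend in the variance (14.9%), and 0 of 10 without the filter on low values (1.56%), where 3 had an unadjusted p under 0.05. With any 1 library left out it was 0 of 8, beside 0 to 0.121% of all genes, with 2 to 3 members at an unadjusted p under 0.05. The median log2 fold change of the 8 was 0.03, and that of all genes tested was 0.15. The libraries of the days did not overlap for 4 of the 8, with day 5 below for Actg1, Cfl1 and Pfn1 and above for Tmsb10, while 67.2% of all tested genes showed such a gap (40.2% above and 27% below). Summed over all 10 members the level was 4498 and 4113 FPKM on day 5 and 4944 and 4627 FPKM on day 0, or 0.571% and 0.526% against 0.638% and 0.610% of all FPKM.

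**Figure D1:**
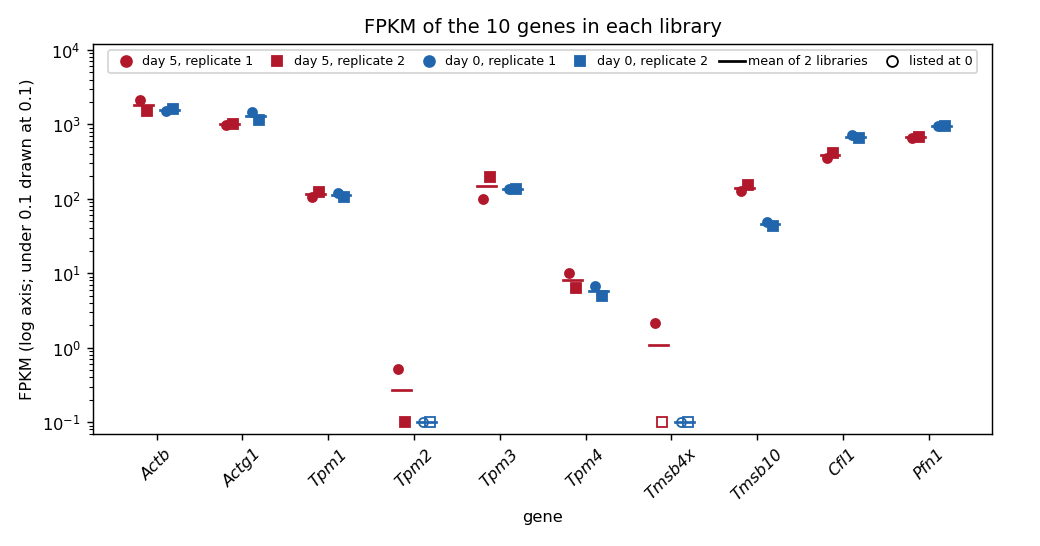
FPKM of the 10 genes on a log axis, with day 5 in red left of day 0 in blue, circles for replicate 1, squares for replicate 2, bars for the mean of 2 libraries, and values under 0.1 drawn at 0.1. The actins, Pfn1 and Cfl1 lie between 358 and 2139 FPKM. Tmsb10 stands higher on day 5 with no overlap, and Cfl1, Pfn1 and Actg1 lower, with Tpm2 and Tmsb4x at or near 0.

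The cytoplasmic actins were the most abundant members on both days. Actb (ENSMUSG00000029580.7), the beta isoform, had 2139 and 1526 FPKM on day 5 and 1490 and 1586 FPKM on day 0. The days overlapped, as day 5 replicate 1 was high and day 5 replicate 2 lay between the day 0 libraries. Its log2 fold change was 0.23 ± 0.23 SE (limma adjusted p = 0.495). It was -0.01 without day 5 replicate 1 and 0.48 without day 5 replicate 2. Among all entries Actb ranked 43rd and 70th by FPKM on day 5 and 77th and 65th on day 0. Actg1 (ENSMUSG00000062825.8), the gamma isoform, had 992 and 1017 FPKM on day 5 and 1466 and 1154 FPKM on day 0. Both day 5 libraries lay below both day 0 libraries, but the day 0 libraries lay far apart, and the log2 fold change of -0.37 ± 0.20 SE did not pass (limma adjusted p = 0.224).

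The share of Actb in the actin sum does not depend on how a library was scaled. It averaged 64.2% ± 5.86 on day 5 and 54.1% ± 5.29 on day 0 (SD, n = 2 each). The days did not overlap, although day 5 replicate 2 (60.0%) and day 0 replicate 2 (57.9%) were close. The exact two-sided permutation p was 0.333, the smallest that 2 against 2 libraries allows. The coding sequences of both actins are much alike, and the sources used here do not say how reads that match both were divided, so this split is uncertain. The actin pseudogene Actb-ps1, under its older symbol Gm8464, stayed below 1 FPKM in all 4 libraries.

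The other actin isoforms, most of them muscle actins, had low values. Acta1, the skeletal muscle isoform, had 1.27 and 1.78 FPKM on day 5 and 0.0461 and nearly 0 FPKM on day 0, and did not pass (limma adjusted p = 0.0628). Its log2 fold change was 1.30, and 3.73 with a pseudocount of 0.1 (adjusted p = 0.0669). Without the trend in the variance it passed (adjusted p = 0.0329). Acta2, of smooth muscle, had 1.82 FPKM in day 5 replicate 1, nearly 0 in day 5 replicate 2, and 0.478 and nearly 0 FPKM on day 0. Actc1, Actg2 and Actbl2 were listed at 0 or nearly 0 in every library, which in estimated FPKM does not show that they were absent.

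Tmsb10 (ENSMUSG00000079523.2), which encodes the monomer-binding thymosin beta 10, had 128 and 151 FPKM on day 5 and 48.7 and 43.0 FPKM on day 0. Both day 5 libraries lay well above both day 0 libraries, and each day's replicates were close. The means were 139 ± 16.8 FPKM on day 5 and 45.9 ± 4.08 FPKM on day 0 (SD, n = 2 each). Its log2 fold change was 1.58 ± 0.18 SE (limma adjusted p = 0.0118). Without the filter on low values it did not pass (adjusted p = 0.0598), nor with any 1 library left out (0.0709 to 0.168), when the log2 fold change was 1.46 to 1.70. Its rank rose to 893rd and 735th on day 5, against 2426th and 2638th on day 0.

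Tmsb4x (ENSMUSG00000049775.10), the X-linked gene of thymosin beta 4, was listed at 0 in 3 of 4 libraries and at 2.16 FPKM in day 5 replicate 1. A value of 0 in estimated FPKM can be a failed estimate, so the level of Tmsb4x is taken as unknown. The beta-thymosin sum of 130 and 151 FPKM on day 5 and 48.7 and 43.0 FPKM on day 0 therefore rests on Tmsb10. For the same reason the table does not give the balance between the 2 thymosins.

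Cfl1 (ENSMUSG00000056201.6), the non-muscle cofilin, had 358 and 416 FPKM on day 5 and 713 and 648 FPKM on day 0. Both day 5 libraries were lower than both day 0 libraries, by more than either day's spread. The means were 387 ± 41.3 FPKM on day 5 and 681 ± 46.0 FPKM on day 0 (SD, n = 2 each). The log2 fold change was -0.82 ± 0.17 SE (limma adjusted p = 0.0363). The call was lost after quantile normalization (-0.54, adjusted p = 0.0766), without the filter (0.0925), without the trend in the variance (0.065) and with any 1 library left out (0.0919 to 0.186).

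The other members of the cofilin family differed from Cfl1 in level. Dstn, which encodes destrin, had 103 and 91.7 FPKM on day 5 and 89.0 and 99.6 FPKM on day 0 (log2 fold change 0.04, limma adjusted p = 0.874). Cfl2, the muscle cofilin, was low, at 6.17 and 10.1 FPKM on day 5 and 3.81 and 6.16 FPKM on day 0, and did not pass (0.61, adjusted p = 0.275). Whether the difference between days was unlike that of Cfl1 was not tested. These and Pfn2 were picked as the closest relatives of members after their values were seen.

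Pfn1 (ENSMUSG00000018293.3), the main profilin of blood cells, had 665 and 674 FPKM on day 5 and 962 and 951 FPKM on day 0. The replicates of each day were nearly equal and the days were clearly apart. The means were 669 ± 6.22 FPKM on day 5 and 956 ± 7.84 FPKM on day 0 (SD, n = 2 each), a ratio of 0.700. The log2 fold change of -0.51 ± 0.16 SE nevertheless did not pass in limma, which draws the spread of 1 gene toward that of all genes of its level (adjusted p = 0.0784, unadjusted p = 0.022). Pfn2, its less abundant relative, rose to 9.68 and 12.3 FPKM on day 5, against 4.09 and 4.13 FPKM on day 0 (log2 fold change 1.22 ± 0.27 SE, limma adjusted p = 0.0388), but did not pass after quantile normalization (0.0778). At these levels Pfn2 adds little to the profilin RNA of the cells.

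**Figure D2:**
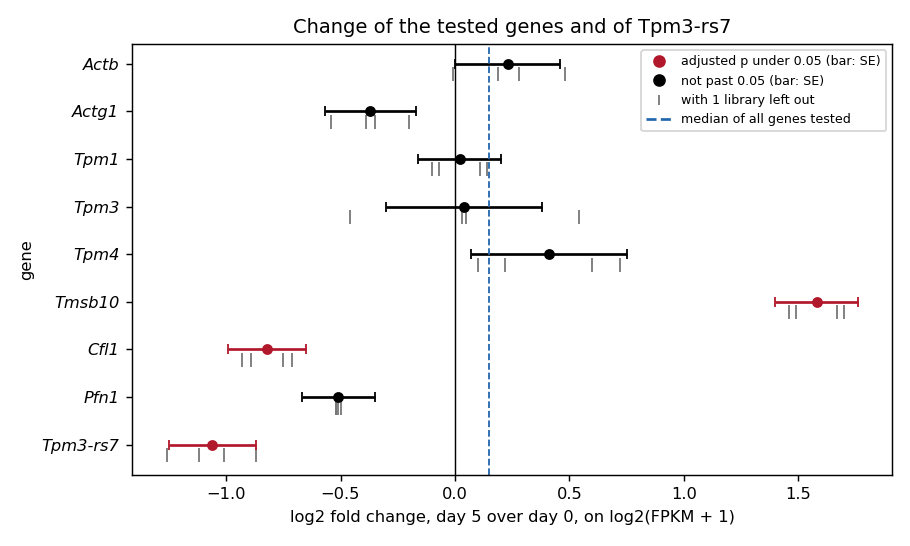
Log2 fold changes of the 8 tested members and Tpm3-rs7, day 5 over day 0, with bars for the SE, red points for an adjusted p under 0.05, grey ticks for the value with each library left out and a dashed line at the median of all genes tested. Tmsb10 (1.58), Cfl1 (-0.82) and Tpm3-rs7 (-1.06) passed, and the ticks of Tpm3 run from -0.46 to 0.54.

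Set against the actins in the same library, the partner genes shifted in different directions. Per 100 FPKM of Actb and Actg1 there were 11.4 and 16.4 FPKM of Cfl1 on day 5 and 24.1 and 23.7 FPKM on day 0. For Pfn1 the values were 21.2 and 26.5 FPKM on day 5 and 32.5 and 34.7 FPKM on day 0. For Tmsb10 they were 4.07 and 5.95 FPKM on day 5 and 1.65 and 1.57 FPKM on day 0. In these 3 ratios the days did not overlap, each with an exact permutation p of 0.333, the smallest possible. Of all tested genes 67.2% showed such a gap in their own FPKM. The mean actin sum was nearly the same on both days, so the ratios largely repeat the values of the 3 genes. The tropomyosin sum per 100 FPKM of actin was 6.87 and 12.9 FPKM on day 5 and 8.94 and 8.98 FPKM on day 0, so the day 5 libraries lay on either side of the day 0 libraries.

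**Figure D3:**
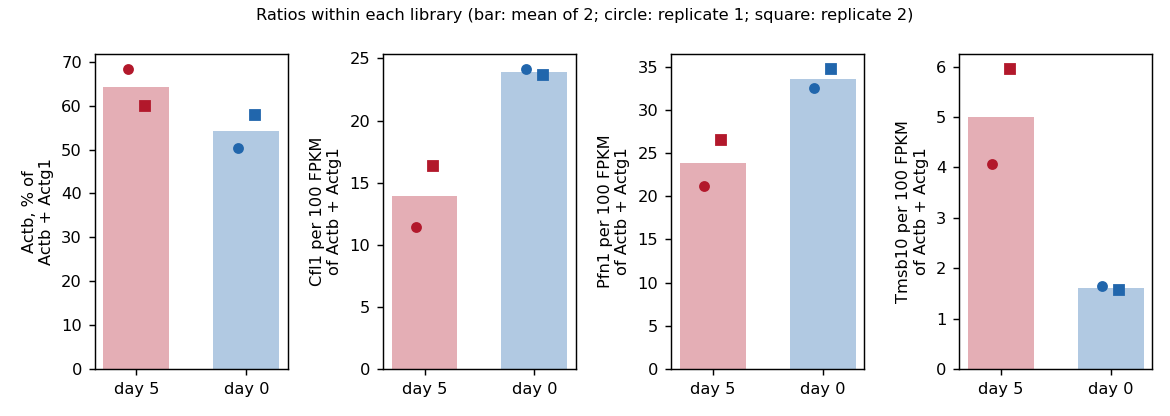
The Actb share of the actin sum in percent, and Cfl1, Pfn1 and Tmsb10 per 100 FPKM of Actb and Actg1, with day 5 left of day 0, points for libraries (circle replicate 1, square replicate 2) and bars for the mean of 2. Day 5 lies higher for the Actb share and Tmsb10 and lower for Cfl1 and Pfn1, without overlap.

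Among the tropomyosins Tpm1 and Tpm3, the 2 genes whose products are found on red cell membrane actin, gave nearly all of the RNA. Tpm1 (ENSMUSG00000032366.9) had 106 and 124 FPKM on day 5 and 121 and 106 FPKM on day 0. The days overlapped fully, with a log2 fold change of 0.02 ± 0.18 SE (limma adjusted p = 0.945). Tpm4 (ENSMUSG00000031799.9), known from platelets and many non-muscle cells, had 10.2 and 6.26 FPKM on day 5 and 6.75 and 4.95 FPKM on day 0, again with overlap (0.41 ± 0.34 SE, limma adjusted p = 0.41). Tpm2 (ENSMUSG00000028464.9), mainly a muscle gene, had 0.523 and 0.0255 FPKM on day 5 and was listed at 0 in both day 0 libraries.

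Tpm3 (ENSMUSG00000027940.11) was the member whose day 5 replicates differed most in proportion among those tested. It had 98.7 and 199 FPKM on day 5 and 137 and 135 FPKM on day 0. One day 5 library lay below and the other above both day 0 libraries. The log2 fold change was 0.04 ± 0.34 SE (limma adjusted p = 0.939), 0.54 without day 5 replicate 1 and -0.46 without day 5 replicate 2. No direction can therefore be given for Tpm3.

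Tpm3-rs7 (ENSMUSG00000058126.6), a related sequence of Tpm3 that is not among the 10 members, carried more FPKM than Tpm3 in 3 of the 4 libraries. It had 137 and 179 FPKM on day 5 and 317 and 343 FPKM on day 0. Both day 5 libraries were far below both day 0 libraries, and the log2 fold change of -1.06 ± 0.19 SE passed (limma adjusted p = 0.027). It did not pass after quantile normalization (-0.82, adjusted p = 0.0539), without the filter (0.0967) or with any 1 library left out (0.0742 to 0.188). Reads of Tpm3 and of this copy are hard to part, so the level of either entry is uncertain. Added together they gave 236 and 378 FPKM on day 5 and 454 and 478 FPKM on day 0, with day 5 below day 0 and a ratio of 0.659 (exact permutation p = 0.333, the smallest possible). The log2 ratio of this sum was -0.30 without day 5 replicate 1 and -0.98 without day 5 replicate 2. The copy made up 58.2% and 47.5% of that sum on day 5 and 69.9% and 71.7% on day 0.

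The 4 tropomyosin genes alone summed to 215 and 329 FPKM on day 5 and 264 and 246 FPKM on day 0, with overlap (exact permutation p = 1). With Tpm3-rs7 the sums were 352 and 509 FPKM on day 5 and 581 and 589 FPKM on day 0, with day 5 below day 0. Whether tropomyosin RNA was lower on day 5 thus depended on whether reads given to Tpm3-rs7 were counted with it. Of the 4 genes, Tpm3 held 45.9% and 60.3% on day 5 and 51.8% and 54.9% on day 0, and Tpm1 held 49.1% and 37.8% on day 5 and 45.7% and 43.0% on day 0.

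**Figure D4:**
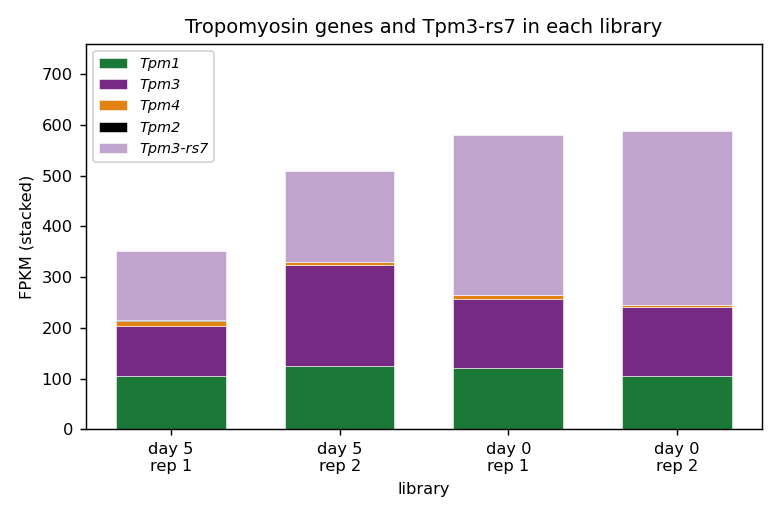
Stacked FPKM of the tropomyosin genes and Tpm3-rs7 in each library, with the day 5 libraries left of the day 0 libraries. Tpm1 is level, Tpm3 differs between the day 5 libraries (98.7 and 199 FPKM), and Tpm3-rs7 is lower on day 5 (137 and 179 FPKM) than on day 0 (317 and 343 FPKM).

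By mean FPKM the order on day 5 was Actb, Actg1, Pfn1, Cfl1, Tpm3, Tmsb10, Tpm1 and Tpm4. On day 0 Tmsb10 stood below Tpm1 and the order was otherwise the same. On day 5 Tpm3 (149 ± 70.7 FPKM), Tmsb10 (139 ± 16.8) and Tpm1 (115 ± 13.3) were neighbours whose libraries of 1 day overlapped or nearly met. Each of the other neighbours on day 5 was apart by more than its spread. On day 0 Actb and Actg1 (1538 ± 67.8 and 1310 ± 221 FPKM) were apart by little more than the spread of Actg1, and Tpm3 (136 ± 1.16 FPKM) and Tpm1 (113 ± 10.4 FPKM) did not overlap. Of 1209 entries with a mean of at least 100 FPKM, those with the most similar profile to Actb over the 4 libraries were Uhrf1, Nt5c2 and Mrpl33. The distance of their centred log2 values from those of Actb was 0.0832, 0.0997 and 0.104, and like Actb each was highest in day 5 replicate 1. With 4 libraries, in each of which all genes share the same depth and scaling, this likeness only describes the profile.

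The wider actin cytoskeleton was described by 9 lists with 133 entries, of which 105 were tested. In limma 22 (21%) passed, 15 higher and 7 lower on day 5, beside 18.5% of all genes, and the median log2 fold change was 0.23 beside 0.15. When globin and mitochondrially encoded genes were removed and the libraries rescaled, 18 were higher and 4 lower (19.6% of all genes passed), and quantile normalization gave 11 and 7. Without the filter 4 passed, of which Tmod1, Vcl and Msn were among the 22, and with any 1 library left out 0 passed in limma, with 31 to 36 at an unadjusted p under 0.05.

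Of 25 tested genes of capping, severing and monomer-binding proteins 4 passed as higher on day 5 and 2 as lower. Together these made up 24%, beside 18.5% of all genes tested. Tmod1, the tropomodulin that caps actin filaments in red cells, rose to 77.5 and 60.2 FPKM on day 5, against 5.99 and 5.84 FPKM on day 0 (log2 fold change 3.32 ± 0.22 SE, limma adjusted p = 0.00504). Add1, the alpha subunit of adducin, which caps the other end of the filament, had 306 and 165 FPKM on day 5 and 68.8 and 65.8 FPKM on day 0 (1.73 ± 0.31 SE, adjusted p = 0.0266), and is named outside the rule because adducin is a partner of these filaments. Add2, the beta subunit, had 49.9 and 58.0 FPKM on day 5 and 63.5 and 34.7 FPKM on day 0 and did not pass (adjusted p = 0.686). Gsn, the filament-severing gelsolin, had 17.3 and 21.1 FPKM on day 5 and 3.30 and 1.44 FPKM on day 0, a log2 fold change of 2.64 that passed. Coro1a, a coronin of leukocytes, fell to 3.32 and 5.01 FPKM on day 5, against 38.7 and 41.2 FPKM on day 0. Coro1c fell by 0.71 on the log2 scale (limma adjusted p = 0.0407), a call lost after quantile normalization (0.0501), with globin and mitochondrially encoded genes removed (0.0534) and without the trend (0.072).

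Of 10 genes of the Arp2/3 complex, which branches filaments, only Actr3b passed (10%, beside 18.5% of all genes tested). It had 15.7 and 19.5 FPKM on day 5 and 8.07 and 5.96 FPKM on day 0 (log2 fold change 1.22, limma adjusted p = 0.0389). After quantile normalization Actr3b did not pass (0.0628). Others had days that did not overlap but did not pass, such as Arpc1a above (0.77, limma adjusted p = 0.0711) and Arpc2 below (-0.63, 0.0584). The median log2 fold change of the 10 was -0.06. Of 15 WASP and WAVE genes, which activate the Arp2/3 complex, 3 passed (20%, beside 18.5% of all genes tested), all higher on day 5. Genes that did not pass went either way, such as Wasf2 above (0.84, limma adjusted p = 0.0516) and Hcls1 below (-1.01, 0.0661). Nckap1 averaged 55.0 ± 4.96 FPKM on day 5 and 13.2 ± 3.20 FPKM on day 0 (SD, n = 2 each), with no overlap of the libraries (1.99 ± 0.24 SE, limma adjusted p = 0.0126), and Cyfip2 rose by 1.25 on the log2 scale (limma adjusted p = 0.0315, and 0.0518 after quantile normalization). Both are subunits of the WAVE complex. Cttn, which encodes cortactin and is named after its values were seen, was the third (1.15, limma adjusted p = 0.0363, and 0.0537 without the trend). Of 7 genes of formins and Ena/VASP proteins, which lengthen unbranched filaments, 2 passed (28.6%, beside 18.5% of all genes tested). These were the formins Inf2 and Daam1, both higher on day 5. Inf2 rose by 1.11 on the log2 scale (limma adjusted p = 0.0202) and also passed after quantile normalization. Daam1 rose by 0.98 (adjusted p = 0.0362), and did not pass after quantile normalization (0.0611).

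Of 16 tested genes of cross-linkers and membrane linkers 1 passed as higher on day 5 and 3 as lower. Together these made up 25%, beside 18.5% of all genes tested. Msn, which encodes moesin and ties actin to the membrane of white cells, fell to 39.1 and 39.7 FPKM on day 5, against 81.8 and 76.5 FPKM on day 0 (-0.99 ± 0.17 SE, limma adjusted p = 0.0231). Lcp1, the leukocyte plastin that bundles filaments, had 1.02 and 0.966 FPKM on day 5 and 13.1 and 4.72 FPKM on day 0. Its log2 fold change was -2.17 ± 0.49 SE (limma adjusted p = 0.0405). The day 5 values of Lcp1 lay near the filter of 1 FPKM, and its day 0 libraries lay far apart. The log2 fold change was -1.52 without day 0 replicate 1 and -2.83 without day 0 replicate 2. Tagln2, a transgelin, named after its values were seen, was the third that passed as lower (-0.89, limma adjusted p = 0.0426). It did not pass after quantile normalization (0.0966) or without the trend (0.0724). Vcl, which encodes vinculin, rose to 88.2 and 88.1 FPKM on day 5, against 42.2 and 41.1 FPKM on day 0.

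Of 8 genes of nonmuscle myosin II, the motor that pulls on actin, 2 passed (25%, beside 18.5% of all genes tested). These were the light chain genes Myl6 and Myl12b, both higher on day 5. Myl6 had 483 and 570 FPKM on day 5 and 299 and 195 FPKM on day 0, which is 1.12 on the log2 scale (limma adjusted p = 0.0403), and that of Myl12b was 0.96 (0.0315). Neither passed without the trend (0.0645 for Myl6 and 0.0546 for Myl12b). The kinases Limk1 and Limk2 switch cofilin off by phosphorylation. Limk1 had 5.36 and 5.25 FPKM on day 5 and 4.65 and 2.98 FPKM on day 0 and did not pass (limma adjusted p = 0.377). Limk2 had 8.71 and 8.35 FPKM on day 5 and 6.09 and 5.36 FPKM on day 0 and did not pass (limma adjusted p = 0.205). Of 6 genes of SRF and its cofactors, only Elk1 passed (16.7%, beside 18.5% of all genes tested). It was higher on day 5 (1.10, limma adjusted p = 0.0477). It did not pass after quantile normalization (0.0907) or with a pseudocount of 0.1 (0.0535). Srf itself had 15.4 and 13.6 FPKM on day 5 and 14.9 and 12.8 FPKM on day 0 (log2 fold change 0.06, adjusted p = 0.862). The Limk and Srf genes, also outside the rule, are named for their known roles in cofilin and actin regulation.

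**Figure D5:**
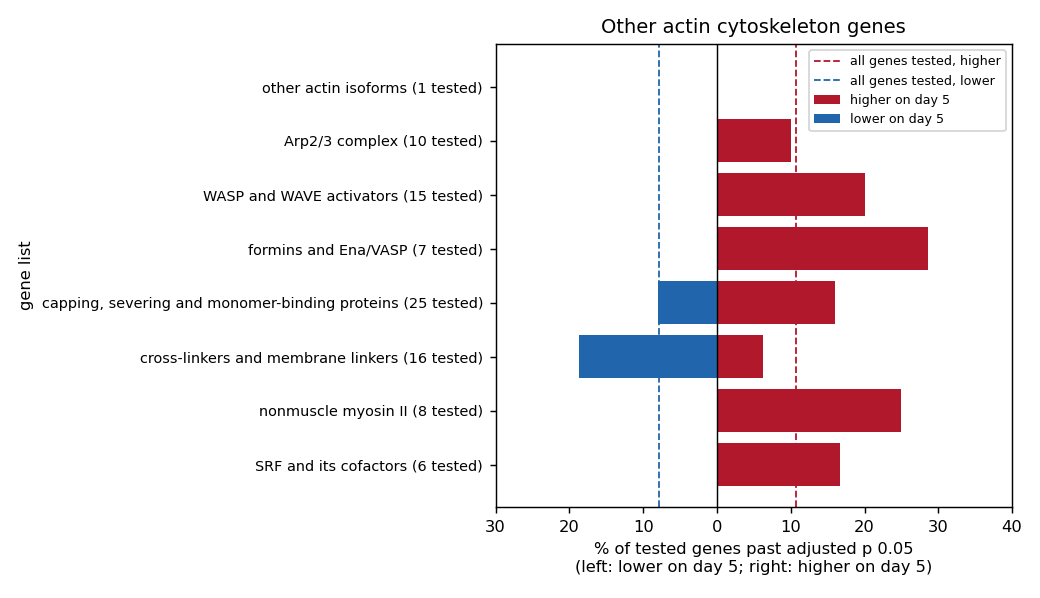
Share of tested genes of 8 cytoskeleton lists, in percent, that passed an adjusted p of 0.05 higher (right) or lower (left) on day 5, with dashed lines for the same share of all genes tested (10.7% and 7.81%). Each bar stands for few genes, as the capping list has 4 higher and 2 lower of 25 tested and the cross-linker list 1 higher and 3 lower of 16.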

How the data were processed

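RNA was measured in 4 libraries, and the authors deposited 1 table of FPKM with 26599 entries. The submitters' processing notes name Bowtie. The quantifier, its handling of shared reads and the annotation are not given in the sources used here. FPKM are relative to the library total and give no counts. The region files of the other assays were not used here, because they carry mm9 positions and no gene names, and gene positions in mm9 were not at hand. Members were found by symbol, and list genes by symbol or, failing that, by gene ID. Entries that reached 1 FPKM in 2 or more libraries were transformed as log2(FPKM + 1), which understates the change of low genes, and tested two-sided with limma (version 3.58.1, under R 4.3.3), using lmFit and a moderated variance with a trend on the mean level, and p-values were adjusted by Benjamini-Hochberg over 10736 entries. Sums and shares were compared by exact permutation over libraries. Named genes were all members, up to 2 called genes per direction and list with the smallest adjusted p whose mean reached 5 FPKM on either day, and, where none was called, the 2 with the highest mean. One of the 9 cytoskeleton lists enters the totals over the lists but is not reported here on its own. The members and lists were chosen with earlier results of these data known. Alternatives were a pseudocount of 0.1, no filter, a filter of 5 FPKM, quantile normalization, removal of globin and mitochondrially encoded genes with rescaling to 1000000, no trend, a replicate block and each library left out.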

Additional observations from a re-analysis of the deposited data

How the results depend on the processing

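With no filter on low FPKM, 237 genes in all, 0 members (3 at an unadjusted p under 0.05) and 4 genes of the cytoskeleton lists passed in limma, against 1989, 2 and 22. With quantile normalization or without the trend in the variance 1 member passed, Tmsb10. With 1 library left out, a fit in which the lone library of a day is assumed to vary like the other day, 0 to 13 genes in all passed (2504 to 3440 at an unadjusted p under 0.05), with 0 members (2 to 3) and 0 list genes (31 to 36). Tmsb10, Actg1, Cfl1, Pfn1 and Tpm4 kept their direction under the 11 alternatives. Actb ranged from -0.01 without day 5 replicate 1 to 0.48 without day 5 replicate 2. Tpm1 turned to -0.07 without day 0 replicate 2 and to -0.10 without day 5 replicate 2, and was 0.14 without day 5 replicate 1. Tpm3 turned to -0.46 without day 5 replicate 2 and was 0.54 without day 5 replicate 1. Dstn ranged from -0.04 to 0.12, Add2 from -0.23 to 0.62 and Srf from -0.04 to 0.16 with 1 library left out, and Srf was -0.20 after quantile normalization. None of these 6 passed in any fit. The log2 ratio of day 5 over day 0 ranged from -0.16 to 0.14 for the actin sum and from -0.25 to 0.37 for the tropomyosin sum with 1 library left out. The replicate numbers are not known to pair cultures, and over genes the deviations of replicate 1 correlated at 0.048 between the days. With the replicate block 1797 genes, 2 members and 21 list genes passed. Of the 22 list genes of the fit without the block, 15 kept their call and 7 lost it, among them Actr3b (adjusted p = 0.0554), Daam1 (0.0521), Coro1c (0.0554), Pfn2 (0.0543) and Elk1 (0.0706), and 6 others were called. After quantile normalization 14 of the 22 kept their call, and 4 others were called. Unknown read depth limits what can be said of genes at or near 0, such as Tpm2 and Tmsb4x.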
